A study of Mus musculus with 48 samples.

Results

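The 10 genes described here, Atf4, Ddit3, Trib3, Asns, Psat1, Phgdh, Aldh18a1, Chac1, Slc7a11 and Sesn2, belong to the integrated stress response, and they were taken by symbol from the 54752 genes of each count table. The libraries hold freshly transcribed RNA of mouse embryonic stem cells (ESCs) given 4-thiouridine (4SU), a uridine analogue that marks transcripts as they are made, for 30 min in cycling and 15 min in synchronized cells. The 48 libraries form 24 groups of 2. Cycling FOXD3-iKO cells, in which 4-hydroxytamoxifen (4HT) removes the forkhead factor FOXD3, were collected after 8, 14, 24 and 32 h of 4HT or of its solvent ethanol (16 libraries). Deposited column names of the 8 and 14 h libraries carry a lane tag that those of 24 and 32 h lack. A difference of hours across these 2 library series cannot be told apart from one of series. Cycling OCT4-tetOff cells, in which doxycycline switches off the pluripotency factor OCT4 (gene Pou5f1), were collected after 16 and 24 h of doxycycline or water (8 libraries). FOXD3-iKO cells held by a double thymidine block, which stops cells as they begin DNA replication, were released 24 h after 4HT or ethanol and collected 0, 1, 2, 3, 4 and 5 h later (24 libraries). All cells were grown in the medium the labels call L2i. Solvent cells of an experiment carry the same alleles as its depleted cells, so drug and loss of the factor come together and cannot be told apart. The sources used here do not give clone, promoter or feeder layer. None says that the replicates are separate cultures, so p-values measure only how these samples spread, and that spread may be technical.

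In the integrated stress response, kinases that sense missing amino acids, unfolded protein, missing haem or double-stranded RNA phosphorylate the translation factor eIF2, which lowers general protein synthesis and favours translation of the mRNA for ATF4. ATF4 is a basic leucine zipper factor that switches on genes for making and importing amino acids, charging tRNAs and handling oxidative stress, and in prolonged stress genes tied to cell death. Because ATF4 is controlled largely at translation, the rate at which its own RNA is made is only part of its regulation, and 4SU counts show transcription and not ATF4 protein.

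Composite sites for ATF4 and its C/EBP partners are often written TGATGNAA. This motif, on either strand, lies within the 300 bases from 250 before to 50 after a RefSeq start site (build GRCm38.p6) in 4 of the 10 genes, against 1304 of 32851 such windows over all genes (3.97%). The stretches below show the 4 genes in which it was found, 5′ to 3′ on the gene's strand, with the matches in capitals.
Trib3: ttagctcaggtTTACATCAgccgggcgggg
Asns: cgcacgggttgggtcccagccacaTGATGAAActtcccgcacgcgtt
Chac1: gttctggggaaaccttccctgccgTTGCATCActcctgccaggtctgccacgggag
Slc7a11: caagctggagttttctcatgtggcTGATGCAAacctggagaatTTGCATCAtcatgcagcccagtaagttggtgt
These lie at chr2:152344028-152344057 (minus strand), chr6:7693210-7693256 (minus), chr2:119351025-119351080 (plus) and chr3:50443629-50443703 (minus). Capitals that read TTACATCA or TTGCATCA are the motif on the opposite strand. The match starts 14 bases after the start site in Trib3, 23 before it in Asns, 193 before it in Chac1, and 66 and 47 before it in Slc7a11, the one gene of the 10 with a pair of matches. Among related groups the motif was in 5 of 7 aminoacyl-tRNA synthetase genes with a promoter entry, 6 of 12 stress regulators, 3 of 9 genes of amino acid and one-carbon synthesis, 1 of 5 amino acid transporters and 0 of 13 endoplasmic reticulum genes. These are matches of letters in one window per start site, and no binding was measured.

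Foxd3 was lower in each of the 4HT libraries than in each ethanol library of its table (CPM, counts scaled to 1000000 per library, of 1.43 to 4.84 against 5.05 to 10 in cycling cells). Pou5f1 fell after doxycycline from 223 to 79.2 CPM at 16 h and from 187 to 52.6 at 24 h, while Foxd3 itself went from 20.7 to 2.37 CPM in those cells at 24 h. Totals were 21827951 to 30406124 counts in cycling FOXD3-iKO, 21113158 to 26112435 in OCT4-tetOff and 7953841 to 17936504 in synchronized libraries, where 3 counts equal 0.0987 to 0.137, 0.115 to 0.142 and 0.167 to 0.377 CPM. Of 8 ESC markers 7 were detected in every library, Sox2 being at 0 throughout. A second gene ID of Ddit3, which lies inside the counted one, was also at 0 throughout. Whether the Sox2 value comes from how reads were assigned was not tested, and it is not read as a lack of transcription. The ESC marker sum, which includes Pou5f1 itself, was 964 to 1480 CPM with doxycycline against 2722 to 3123 with water. The trophectoderm sum was 112 to 148 against 50.8 to 68.8, and fibroblast markers summed to at most 6.61 CPM in any library. In cycling FOXD3-iKO cells the trophectoderm sum was 68.2 to 81.7 CPM with 4HT and 42 to 67.5 with ethanol, and in synchronized cells 43.4 to 69.2 and 24.5 to 44.9. The part of such shifts in the results below was not tested, and in bulk RNA fewer cells of a type and less RNA per cell cannot be told apart. The 2 ethanol libraries of 32 h differed from each other by a median of 0.32 on the log2 scale over 18707 genes, against 0.10 to 0.22 in the other cycling FOXD3-iKO groups, and Gm26917 and Gm42418, a pair of genes that collects reads of ribosomal RNA, took 14.3% of the counts of the first and 28% of the second (13.9 and 12.5% in the 4HT libraries of 32 h, 29 and 31.8% in ethanol at 24 h). Results at 32 h are also given without each of them.

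Levels between genes were compared per kilobase of the counted gene interval, introns included. In cycling ethanol cells Atf4 stood highest at 67.9 CPM per kb over 8 libraries, followed by Asns at 22.2 and Sesn2 at 4.79. Psat1 (2.45), Chac1 (1.98), Trib3 (1.8), Ddit3 (1.52), Aldh18a1 (1.34) and Phgdh (1.31) lay close together, and neighbours in this order did not differ beyond their spread over the 8 libraries. Slc7a11 was lowest at 0.00133 CPM per kb, with 10 to 23 counts a library. Its deposited interval spans 551.1 kb against 134.2 kb in RefSeq, and that of Psat1 42.7 against 19.9 kb, which lowers their values per kb. A second Ddit3 ID of 2.9 kb lies inside the counted one of 5.5 kb and had 0 counts in all 48 libraries. If reads shared by both IDs were left out, the Ddit3 value per kb is too low.

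After FOXD3 loss in cycling cells the amino acid synthesis genes Aldh18a1, Phgdh and Psat1 fell, together with Atf4 itself. In the main fit (edgeR with TMM, all libraries) none of the 10 passed as higher. Several other settings lost the Atf4 call at 32 h, and several called Sesn2 higher at that time. At 8 and 14 h none of the 10 was called (edgeR adjusted p under 0.05), at times when 0.0107% and 0.016% of the 18707 genes tested were. That is 2 and 3 genes, with 0.00535% lower at each time and 0.00535% and 0.0107% higher. At 24 h 1 of the 10 was lower, against 0.0802% of all genes lower, 0.401% higher and 0.481% called either way. At 32 h 4 of the 10 were lower, against 4.59% lower, 4.88% higher and 9.47% called either way. With total counts alone in place of TMM the median of all genes at 32 h moved from -0.05 to 0.12, and 86.8% in place of 51.6% of called genes were higher, while Aldh18a1, Phgdh and Psat1 stayed below 0, Psat1 without a call (-0.34, edgeR adjusted p = 0.05). In that setting Atf4 lost its call (-0.37, adjusted p = 0.13) and Sesn2 was called higher (0.63, adjusted p = 0.011). In the main fit the median log2 fold change of the 10 was -0.32 at 24 h and -0.40 at 32 h, beside -0.02 and -0.05 over all genes. With the first or the second ethanol library of 32 h left out, 5 of the 10 were called at 24 h (4 lower and Sesn2 higher, 1.17% of all genes called). The response at 32 h was not called as different from that at 24 h for any of the 10 (edgeR, 0 genes called of 18707, 1395 at an unadjusted p under 0.05, and 12 with DESeq2).

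**Figure D1:**
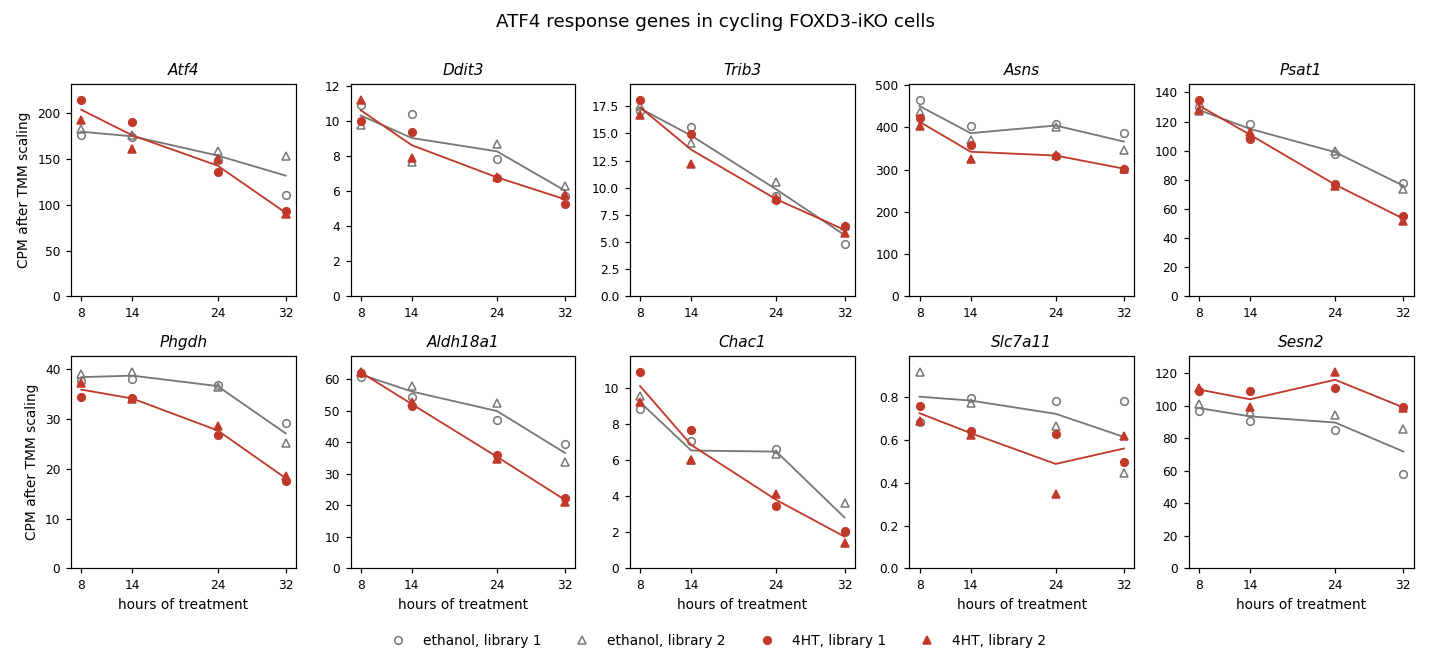
CPM after TMM scaling (vertical axis, from 0) against hours of treatment for each gene in cycling FOXD3-iKO cells. Points are libraries, lines join the means of 2, grey is ethanol and red 4HT. The red points of Psat1, Phgdh and Aldh18a1 lie below the grey ones at 24 and 32 h, Sesn2 has its red points above the grey at all 4 times, and the mean of each gene is lower at 32 h than at 8 h in both arms. Libraries of 8 and 14 h are of another series than those of 24 and 32 h, so that last difference cannot be told apart from one of series.

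Atf4 (chromosome 15, 80255184 to 80257541, plus strand, mm10), the gene of the response's central factor, read 176 and 183 CPM with ethanol at 8 h, 174 and 176 at 14 h, 149 and 159 at 24 h, and 111 and 154 at 32 h. With 4HT it read 215 and 193, 191 and 161, 136 and 150, and then 92.9 and 89.8 CPM. The groups overlapped at 14 and 24 h, and at 32 h both 4HT libraries lay below both ethanol libraries. Its log2 fold change at 32 h was -0.53 ± 0.14 (standard error, SE; edgeR adjusted p = 0.027, n = 2). Without the first ethanol library of 32 h it was -0.75 (adjusted p = 0.00041), and without the second, the one at 154 CPM, -0.28 (adjusted p = 0.15). The call was also lost with total counts alone, in a fit of these 2 groups only (adjusted p = 0.13 and 0.36), and without the first ethanol library of 24 h, the first 4HT library of 32 h or the second (adjusted p = 0.051, 0.12 and 0.17). Genes of 0.5 to 2 times the 2.4 kb length of Atf4 had a median change of -0.27 at 32 h.

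Ddit3 (chromosome 10, 127290774 to 127296288, plus), which encodes the stress factor CHOP, and Trib3 (chromosome 2, 152337422 to 152344032, minus), a pseudokinase that restrains ATF4, showed no called difference. Ddit3 lay between 5.28 and 11.2 CPM in all 16 libraries, with a change of -0.12 ± 0.16 at 32 h (adjusted p = 0.72). Trib3 went with ethanol from 17.1 and 17.5 CPM at 8 h to 4.78 and 6.52 at 32 h. With 4HT it went from 18.1 and 16.7 to 6.44 and 5.81, so that both arms were lower at 32 h than at 8 h and overlapped at 32 h (0.11 ± 0.16, adjusted p = 0.73). The fall from 8 to 32 h spans both library series, so hours and series cannot be told apart in it.

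Aldh18a1 (chromosome 19, 40550257 to 40588463, minus), which makes the precursor of proline, was the earliest of the 10 to be called. With ethanol it read 60.6 and 62.4 CPM at 8 h, 54.4 and 57.8 at 14 h, 47.2 and 52.6 at 24 h, and 39.4 and 33.9 at 32 h. With 4HT it read 62.1 and 62.3, 51.5 and 52.7, 35.9 and 34.8, and 22.3 and 21 CPM. The arms were together at 8 h and apart from 14 h on, with the 4HT libraries below. The log2 fold change was -0.50 ± 0.09 at 24 h (edgeR adjusted p = 0.026) and -0.76 ± 0.09 at 32 h (adjusted p = 0.00021). The 24 h call was lost with total counts alone (adjusted p = 0.07) and without any one of 9 libraries, among them each of the 4 compared (adjusted p = 0.11 to 0.32). At 32 h the change was -0.65 and -0.86 without the first and the second ethanol library.

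Phgdh (chromosome 3, 98313170 to 98339990, minus) and Psat1 (chromosome 19, 15904678 to 15947337, minus) encode the opening enzymes of serine synthesis. Phgdh read 36.8 and 36.5 CPM with ethanol and 26.8 and 28.6 with 4HT at 24 h, then 29.1 and 25.1 against 17.6 and 18.6 at 32 h. Its 4HT libraries lay below its ethanol libraries at all 4 times. The change was -0.40 ± 0.09 at 24 h (edgeR adjusted p = 0.059) and -0.58 ± 0.09 at 32 h (adjusted p = 0.0012). Psat1 read 97.6 and 100 against 77.4 and 75.9 CPM at 24 h, and 78.1 and 74 against 55.2 and 51.6 at 32 h. Its arms overlapped at 8 and 14 h, and were apart at 24 h (-0.37 ± 0.08, adjusted p = 0.073) and 32 h (-0.51 ± 0.08, adjusted p = 0.0019). With the first or the second ethanol library of 32 h left out, both genes passed at 24 h as well (adjusted p = 0.011 and 0.023). At 32 h both kept their call when the one or the other was left out, Phgdh at -0.47 and -0.68 and Psat1 at -0.47 and -0.55. In the fit of the 2 groups of 32 h alone none of the 10 was called, with 194 genes called of 17258, while Phgdh, Psat1 and Aldh18a1 had changes of -0.51, -0.44 and -0.69 there.

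Asns (chromosome 6, 7675169 to 7693254, minus), asparagine synthetase and a textbook ATF4 target, was lower in both 4HT libraries than in both ethanol libraries at each of the 4 times, without passing the threshold. It read 465 and 436 CPM with ethanol and 422 and 403 with 4HT at 8 h, and 386 and 347 against 301 and 302 at 32 h. The change at 32 h was -0.28 ± 0.10 (edgeR adjusted p = 0.085), with a call in DESeq2 (adjusted p = 0.023) and with the length trend removed (adjusted p = 0.032).

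Chac1 (chromosome 2, 119351229 to 119354381, plus), an enzyme that breaks down glutathione, read 6.59 and 6.35 CPM with ethanol against 3.44 and 4.13 with 4HT at 24 h. At 32 h it read 2.02 and 3.62 against 2.08 and 1.43, so the arms overlapped. Neither change passed (edgeR, -0.77 ± 0.21 with adjusted p = 0.18 at 24 h, -0.69 ± 0.28 with adjusted p = 0.14 at 32 h). Without the first ethanol library of 32 h the change at 32 h was -1.05 (adjusted p = 0.011), and without the second -0.21 (adjusted p = 0.72). Slc7a11 (chromosome 3, 49892526 to 50443614, minus), the cystine importer that feeds glutathione synthesis, lay between 0.347 and 0.919 CPM in the 16 libraries with 10 to 23 counts, and was not called (-0.12 ± 0.36 at 32 h, adjusted p = 0.9).

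Sesn2 (chromosome 4, 132492032 to 132510501, minus), a stress sensor that restrains the growth kinase mTORC1 and is induced by p53 as well as ATF4, lay in the other direction, close to the threshold at 32 h. Its 4HT libraries stood above its ethanol libraries at all 4 times. It read 84.9 and 94.4 CPM with ethanol against 111 and 121 with 4HT at 24 h, and 58 and 85.7 against 99.3 and 98.7 at 32 h. The change was 0.38 ± 0.14 at 24 h (edgeR adjusted p = 0.4, or 0.034 and 0.033 without the first or the second ethanol library of 32 h) and 0.46 ± 0.14 at 32 h (adjusted p = 0.053). At 32 h it was 0.21 (adjusted p = 0.15) without the first ethanol library and 0.77 (adjusted p = 0.00036) without the second. It was also called at 32 h with DESeq2, total counts alone (0.63), no low-count filter, the length trend removed or a replicate block (adjusted p = 0.029, 0.011, 0.0018, 0.0033 and 0.047).

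Several of these genes also fell in ethanol alone. Between 24 and 32 h 5 of the 10 fell, against 2.68% of genes lower, 2.7% higher and 5.38% called. Chac1 fell by 1.19 ± 0.23 on the log2 scale (edgeR adjusted p = 0.012), Trib3 by 0.79 ± 0.15 (adjusted p = 0.011), Aldh18a1 by 0.45 ± 0.09, Phgdh by 0.44 ± 0.09 and Psat1 by 0.38 ± 0.08 (adjusted p = 0.014, 0.013 and 0.02). The median of the 10 was -0.41, beside 0.02 over all genes. These 5 calls remained without the first or the second ethanol library of 32 h (4.53 and 24% of all genes called), and without the second Atf4 and Sesn2 were lower as well (-0.47 and -0.63, adjusted p = 0.011 and 0.0019). Without the first ethanol library of 24 h 1 of the 5 calls remained, that of Aldh18a1, and without the second 0 of the 5. In a fit of these 2 groups alone 0 of 17169 genes passed. The ethanol libraries of 24 h are shared by this comparison and by FOXD3 loss at 24 h, and those of 32 h by this comparison and by FOXD3 loss at 32 h. Between 8 and 14 h no gene was called in ethanol (0 of 18707 with edgeR, 1928 at an unadjusted p under 0.05, 77 with DESeq2).

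OCT4 loss lowered 5 of the 10 genes and raised 1. At both 16 and 24 h Asns, Phgdh, Psat1, Aldh18a1 and Chac1 fell and Slc7a11 rose, while Atf4, Ddit3, Trib3 and Sesn2 were not called. The background was 8.91% lower, 7.94% higher and 16.9% called of 17713 genes at 16 h. At 24 h the background was 18.7% lower, 18.1% higher and 36.9% called. The median of the 10 was -0.36 at 16 h and -0.49 at 24 h, beside 0.00 and -0.01 over all genes. Gm26917 and Gm42418 took 37.9 and 43% of the counts with water and 36.9 and 30.3% with doxycycline at 16 h. At 24 h they took 27.3 and 26% with water and 21 and 18.1% with doxycycline. The part of this library difference in the OCT4 results was not tested.

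**Figure D2:**
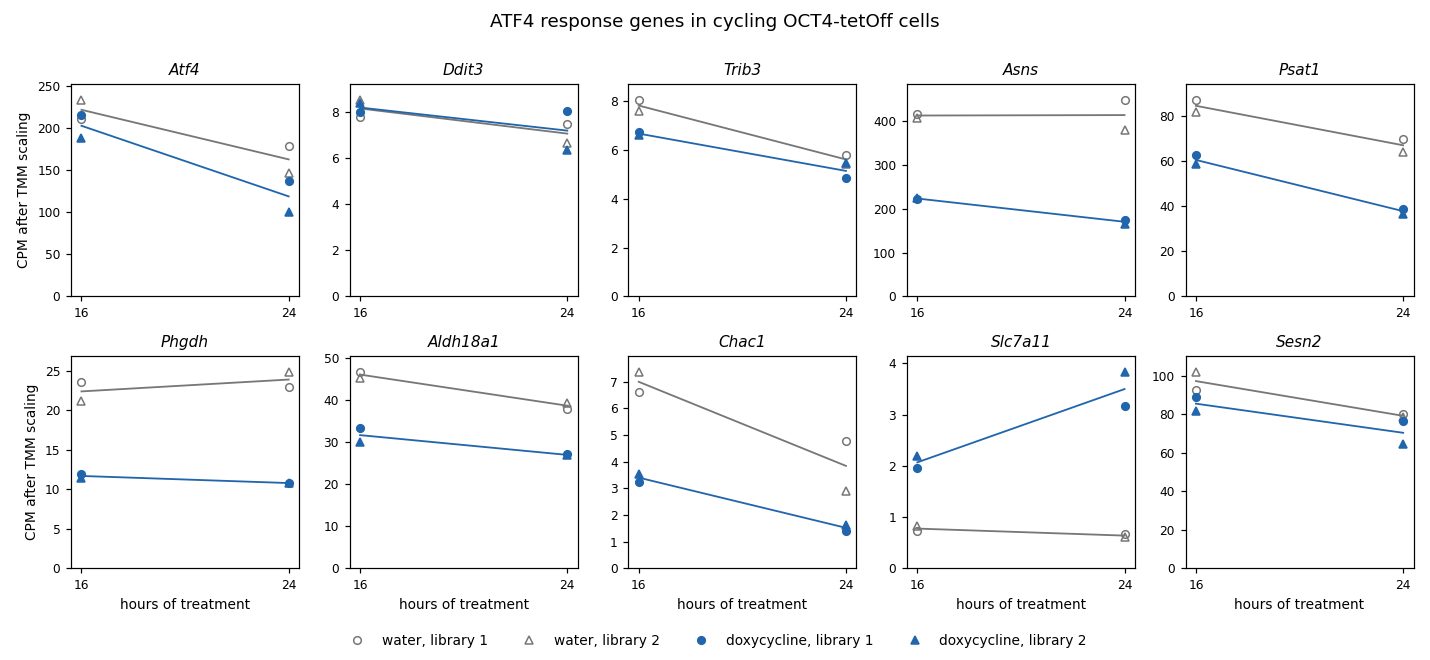
CPM after TMM scaling (vertical axis, from 0) at 16 and 24 h of water (grey, open) or doxycycline (blue, filled) in OCT4-tetOff cells, one point per library and lines through the means of 2. Asns, Phgdh, Psat1, Aldh18a1 and Chac1 have both blue points below both grey ones at each time, Slc7a11 has both above, and Ddit3 overlaps.

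Asns read 416 and 407 CPM with water against 222 and 225 with doxycycline at 16 h, and 448 and 378 against 175 and 165 at 24 h. Both doxycycline libraries lay below both water libraries at each time, with log2 fold changes of -0.88 ± 0.12 (edgeR adjusted p = 0.00079) and -1.28 ± 0.12 (adjusted p = 4.4e-05). Phgdh read 23.6 and 21.2 against 12 and 11.4 CPM at 16 h, and 22.9 and 24.9 against 10.8 and 10.8 at 24 h. The groups were apart at both times, with changes of -0.94 ± 0.11 (adjusted p = 0.00035) and -1.15 ± 0.11 (adjusted p = 4.6e-05).

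Psat1 read 87.2 and 81.8 against 62.5 and 58.5 CPM at 16 h, and 70 and 64 against 38.8 and 36.7 at 24 h. Its change was -0.48 ± 0.09 and then -0.83 ± 0.09 (edgeR adjusted p = 0.007 and 0.00017). Aldh18a1 read 46.8 and 45.4 against 33.3 and 30.1, then 38 and 39.4 against 27.1 and 27 CPM. The 2 changes were -0.54 ± 0.09 and -0.52 ± 0.09 (adjusted p = 0.0028 and 0.0019). With total counts alone the Psat1 call at 16 h was lost (adjusted p = 0.1). That scaling moved the median of all genes at 16 h to 0.15 and the share of higher among called genes from 47.1 to 70.1%.

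Chac1 read 6.61 and 7.37 CPM with water against 3.24 and 3.55 with doxycycline at 16 h, and 4.78 and 2.9 against 1.41 and 1.62 at 24 h (62 to 136 against 41 to 91 counts). The changes were -1.04 ± 0.22 and -1.36 ± 0.25 (edgeR adjusted p = 0.011 and 0.003), and genes of like length had a median of -0.27 at 24 h. At 16 h the Chac1 call was lost without the second water library or either doxycycline library (adjusted p = 0.079, 0.083 and 0.059), that of Psat1 without the first water or second doxycycline library (0.082 and 0.096), that of Aldh18a1 without the second doxycycline library (0.053) and that of Slc7a11 without the first water library (0.059).

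Slc7a11 was the gene that rose. It read 0.729 and 0.825 CPM with water against 1.95 and 2.19 with doxycycline at 16 h, and 0.672 and 0.608 against 3.16 and 3.84 at 24 h. In counts that is 13 to 17 a library with water and 48 to 104 with doxycycline. The log2 fold change was 1.41 ± 0.25 at 16 h (edgeR adjusted p = 0.0048) and 2.43 ± 0.23 at 24 h, 5.40-fold (adjusted p = 5.8e-05). Genes of 0.5 to 2 times its length had a median change of 0.27 at 24 h. Annotated genes nested in its interval had at most 2 counts in any library, which does not show whether they were transcribed. A second Ddit3 ID that lies inside the counted one also had 0 counts in all 48 libraries, and how shared reads were assigned is not given.

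Ddit3 and Trib3 were not called, and Atf4 was close to the threshold. Atf4 read 211 and 234 CPM with water against 216 and 189 with doxycycline at 16 h, where the arms overlapped, and 179 and 147 against 137 and 100 at 24 h (-0.46 ± 0.16, edgeR adjusted p = 0.054). Atf4 was called at 24 h with DESeq2, no low-count filter or a replicate block (adjusted p = 0.036, 0.0018 and 0.019), and in the fits without the second water library or the first doxycycline library (-0.60 and -0.68, adjusted p = 0.034 and 0.0058), and genes of like length had a median of -0.31. Ddit3 lay between 6.35 and 8.53 CPM in all 8 libraries (0.03 ± 0.15 at 24 h, adjusted p = 0.91), and Trib3 between 4.84 and 8.07 (-0.13 ± 0.14, adjusted p = 0.48). Sesn2 read 79.9 and 78.3 against 76.2 and 64.4 CPM at 24 h (-0.17 ± 0.11, adjusted p = 0.25). No gene passed for a difference of the OCT4 response between 24 and 16 h or between the water groups of these times (edgeR 0 of 17713 each, 1952 and 4119 at an unadjusted p under 0.05, 79 and 394 with DESeq2).

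The 2 losses were set against each other at 24 h in a joint fit of 8 libraries, with 3 of the 10 called higher and 1 lower, against 9.07% of 18437 genes higher, 7.4% lower and 16.5% called. The difference is the FOXD3 response less the OCT4 response, so a positive value means a smaller fall after FOXD3 loss. It was 1.0 ± 0.18 for Asns (edgeR adjusted p = 0.0046), 0.75 ± 0.14 for Phgdh (adjusted p = 0.0055) and 0.46 ± 0.14 for Psat1 (adjusted p = 0.048). For Slc7a11 it was -3.04 ± 0.46 (adjusted p = 0.0017), with the gene at 0.629 and 0.347 CPM after 4HT and at 3.16 and 3.84 after doxycycline. Aldh18a1 changed by -0.50 after FOXD3 loss and -0.52 after OCT4 loss, a difference of 0.03 ± 0.13 (adjusted p = 0.92). The difference for Sesn2 was 0.55 ± 0.17 (adjusted p = 0.05) and for Chac1 0.59 ± 0.33 (adjusted p = 0.25). The Psat1 call was lost with DESeq2, total counts alone, RLE factors, a replicate block or no low-count filter (adjusted p = 0.065 to 0.15), and without any one of 7 of the 8 libraries (0.05 to 0.2). The tables come from different cell lines, and the levels were 99 and 67 CPM for Psat1, 36.6 and 23.9 for Phgdh and 404 and 413 for Asns in the ethanol and water cells of 24 h.

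**Figure D3:**
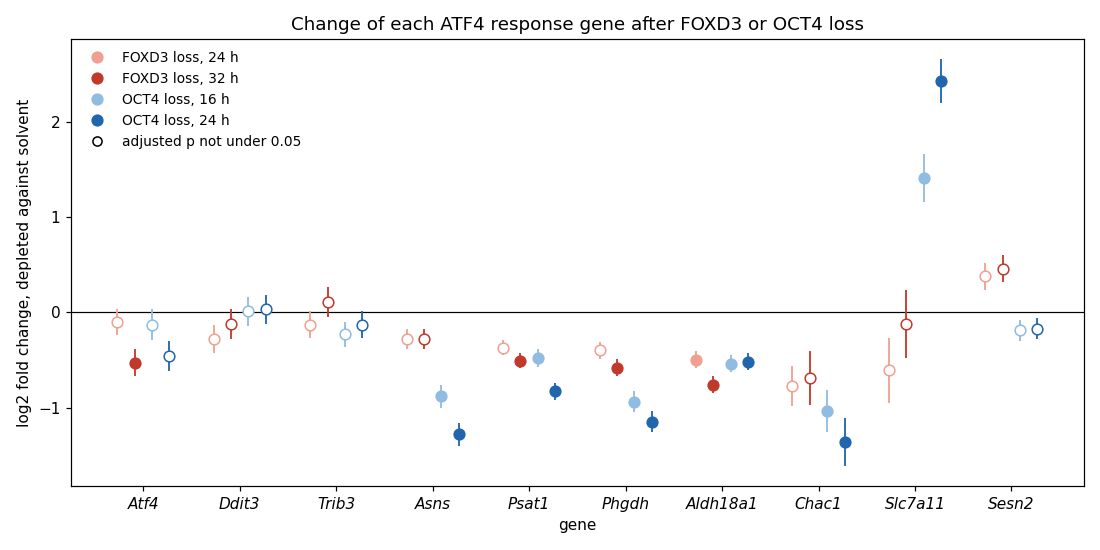
Log2 fold change, depleted against solvent (vertical axis), of each gene after FOXD3 loss at 24 and 32 h (light and dark red) and OCT4 loss at 16 and 24 h (light and dark blue). Bars are 1 SE, and filled points have an edgeR adjusted p under 0.05. Asns, Phgdh, Psat1 and Aldh18a1 lie below 0 in all 4 comparisons, Slc7a11 rises to 2.43 after OCT4 loss, and Sesn2 lies above 0 after FOXD3 loss and below it after OCT4 loss.

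Averaged over all 6 release times of the synchronized cells, 4HT changed 4 of the 10 genes. Phgdh, Asns and Aldh18a1 were lower and Sesn2 higher, against 18.4% of 17739 genes lower, 18.6% higher and 37% called. The share called among the 10 was close to that of all genes. The log2 changes were -0.23 ± 0.05 for Phgdh (edgeR adjusted p = 0.001), -0.14 ± 0.05 for Asns (adjusted p = 0.021), -0.16 ± 0.06 for Aldh18a1 (adjusted p = 0.043) and 0.20 ± 0.07 for Sesn2 (adjusted p = 0.03), n = 12. With total counts alone the median over all genes moved from -0.01 to -0.21, and Sesn2 was then at 0.00. In that setting 791 genes were higher and 7415 lower, in place of 3301 and 3265. Asns was at -0.08 (adjusted p = 0.19) with the length trend removed, and lost its call without a low-count filter (adjusted p = 0.076). Aldh18a1 lost its call without any one of 18 of the 24 libraries (adjusted p = 0.052 to 0.1) and Sesn2 without any one of 13 (0.05 to 0.074). Atf4, between 56.1 and 90.5 CPM in these libraries, changed by -0.16 ± 0.07 (adjusted p = 0.1). It was at 0.02 (adjusted p = 0.83) with the length trend removed and at -0.37 (adjusted p = 0.0014) with total counts alone, and was called without the second ethanol or the first 4HT library of 0 h (-0.20 each, adjusted p = 0.034 and 0.033). Ddit3 (3.53 to 6.39 CPM) and Trib3 (2.41 to 4.96 CPM) changed by -0.14 ± 0.10 and 0.00 ± 0.11, Psat1 by 0.05 ± 0.04 and Slc7a11, with 3 to 14 counts a library, by -0.25 ± 0.17 (adjusted p = 0.31 to 0.98). No difference of the 4HT effect between release times was called for any of the 10 (edgeR 0 of 17739 genes, 883 at an unadjusted p under 0.05, 0 with DESeq2).

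**Figure D4:**
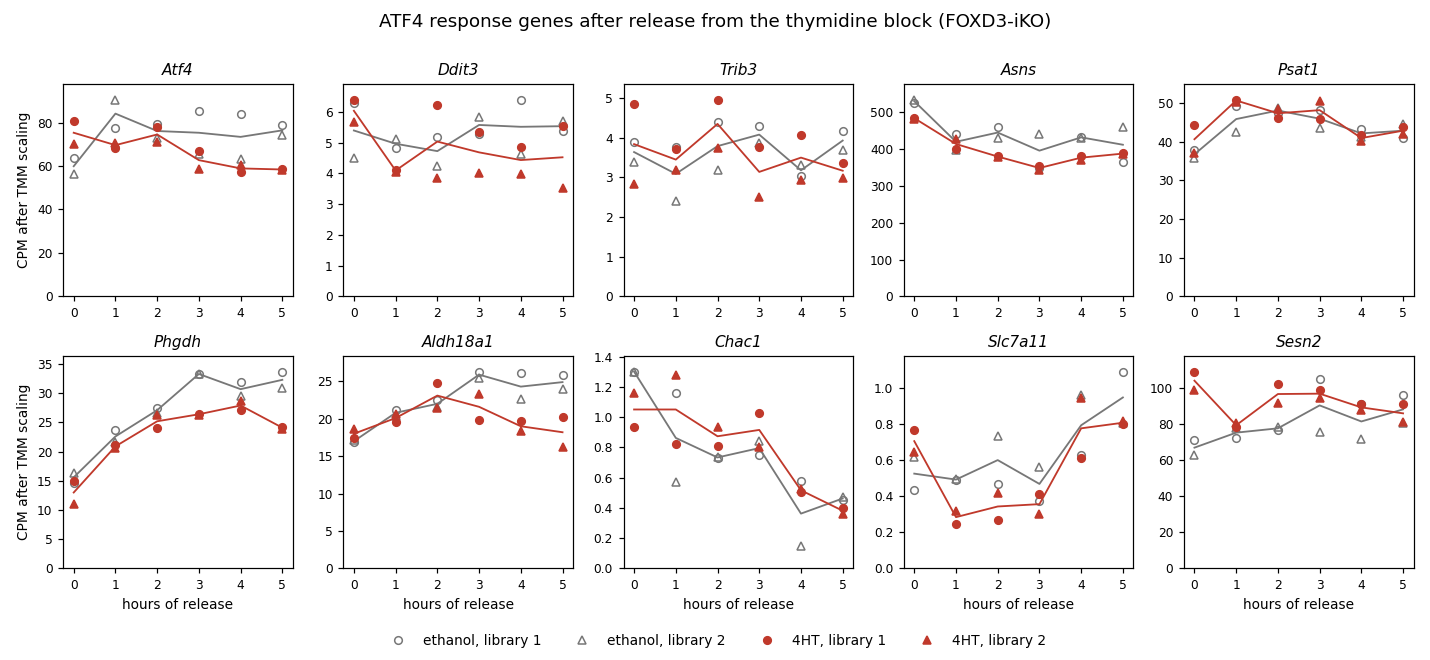
CPM after TMM scaling (vertical axis, from 0) against hours of release from the thymidine block in FOXD3-iKO cells, grey for ethanol and red for 4HT, one point per library and lines through the means of 2. Phgdh rises from 15.6 to 33.3 CPM between 0 and 3 h with ethanol, and at 0 h the Sesn2 points of 4HT stand above those of ethanol.

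Phgdh rose after release in both arms. With ethanol it read 14.7 and 16.4 CPM at 0 h, 23.7 and 21.6 at 1 h, 27.5 and 26.7 at 2 h, 33.3 and 33.3 at 3 h, 31.9 and 29.5 at 4 h, and 33.7 and 30.9 at 5 h. With 4HT it read 14.9 and 11.1, 21.1 and 20.7, 24.1 and 26.3, 26.4 and 26.3, 27.2 and 28.6, and 24.3 and 23.9 CPM. The arms overlapped at 0 h, and from 1 h on each 4HT library lay below each ethanol library of its time. Against 0 h the rise at 3 h was 1.09 ± 0.11 with ethanol (edgeR adjusted p = 1.7e-05, 21.9% of genes called in that comparison, whose ethanol libraries of 3 h differed by a median of 0.32) and 1.01 ± 0.12 with 4HT (adjusted p = 7.1e-05, 10.4% called).

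Aldh18a1 rose with ethanol from 16.9 and 17.1 CPM at 0 h to 26.3 and 25.4 at 3 h (0.61 ± 0.12, edgeR adjusted p = 0.0028), while with 4HT it read 17.4 and 18.6 and then 19.9 and 23.3. Asns went the other way, from 524 and 533 CPM at 0 h to 348 and 441 at 3 h with ethanol (-0.42 ± 0.12, adjusted p = 0.023), and from 484 and 481 to 353 and 342 with 4HT (-0.47 ± 0.12, adjusted p = 0.02). Psat1 and Sesn2 were also higher at 3 h with ethanol (0.32 ± 0.10 and 0.43 ± 0.15, edgeR adjusted p = 0.037 and 0.046). At that time 4 of the 10 were higher and 1 lower, against 21.9% of all genes called either way. Chac1 had 2 to 21 counts a library in this table and was lower at 4 h than at 0 h with ethanol (-1.70 ± 0.41, edgeR adjusted p = 0.0093), where 1 library had 2 counts, under the floor of 3. In that comparison 18.4% of all genes were called. At single release times 0 of the 10 were called for 4HT against ethanol, with 0.445% of all genes called at 0 h, 2.4% at 1 h, 0.789% at 2 h, 3.49% at 3 h, 0.519% at 4 h and 2.22% at 5 h. Sesn2 had its widest gap between arms at 0 h, with 71 and 62.7 CPM for ethanol against 109 and 98.6 for 4HT (0.63 ± 0.15, edgeR adjusted p = 0.075). At 0 h Gm26917 and Gm42418 took 4.92 and 3.41% of the counts with ethanol and 19.7 and 15.6% with 4HT. At 3 h with ethanol they took 25.4 and 4.77%. The part of this library difference in the changes of this paragraph was not tested. Over the whole course 3 of the 10 changed with ethanol (Phgdh, Aldh18a1 and Chac1, 19.4% of genes called) and 1 with 4HT (Phgdh, 15.4% called).

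Genes of amino acid transport, synthesis and tRNA charging were described from lists chosen by function, with earlier results of these data known. At 32 h of FOXD3 loss, where 4.59% of all genes were lower, 4.88% higher and 9.47% called, 6 of 8 amino acid transporters were lower and none higher, among them Slc1a4 (-0.79), Slc6a9 (-0.69), Slc1a5 (-0.46) and Slc7a3 (-0.70). Of 11 genes of amino acid and one-carbon synthesis 5 were lower, including Pycr1 (-1.02), which completes proline, and Shmt2 (-0.82) and Mthfd2 (-0.50) of the mitochondrial folate pathway. Of 12 aminoacyl-tRNA synthetases, which charge tRNAs, 5 were lower (Yars -0.40, Iars -0.37, Mars -0.38, Aars -0.40). The medians of these lists were -0.45, -0.33 and -0.28, beside -0.05 over all genes. The list of stress regulators was split, with Nupr1 (-0.86) and Herpud1 (-0.60) lower and Ddit4 (0.86), an mTORC1 inhibitor, higher among 12. Of the p53 targets, 7 of 12 were higher and none lower, among them Mdm2 (1.09), Perp (1.56), Trp53inp1 (1.01) and Plk2 (1.57). The eIF2 kinases, subunits and phosphatase subunits had 1 of 14 lower (Eif2b5, -0.37), the endoplasmic reticulum chaperones and other ATF6 and XBP1 targets 1 of 15 lower (Manf, -0.53), and the NRF2 targets 1 of 10 higher (Nqo1, 0.41).

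With total counts alone Yars, Iars, Mars and Aars lost their calls (-0.23, -0.20, -0.21 and -0.23, adjusted p = 0.18 to 0.32), as did Slc1a5, Mthfd2, Herpud1, Manf and Eif2b5 (adjusted p = 0.096 to 0.34). In the fit of the 2 groups alone Perp, Mdm2 and Plk2 kept a call (adjusted p = 0.034, 0.046 and 0.037) and none of the other genes named from these lists did. The counts also depended on the ethanol pair of 32 h. Without its first library 7 transporters, 5 synthesis genes and 6 tRNA synthetases were lower, along with 11 of 15 endoplasmic reticulum genes and 6 of 14 eIF2 genes, with 22.6% of all genes called. Without its second library 4 transporters, 2 synthesis genes and 3 tRNA synthetases were lower, with 0 of 15 endoplasmic reticulum genes and 0 of 14 eIF2 genes called and 7.1% of all genes called. The p53 targets had 6 higher and 1 lower, and 8 higher and 1 lower, in the same order. At 24 h, where 0.481% of all genes were called, the p53 targets had 5 of 12 higher (Mdm2 0.65, Trp53inp1 0.60, Plk2 1.02, Btg2 0.82) and the other lists 1 called gene in all, Gpt2 (-0.41, edgeR adjusted p = 0.049). That call was lost with total counts alone, no low-count filter or a replicate block (adjusted p = 0.28, 0.11 and 0.076), and in 14 of 16 fits without 1 library, among them each of the 4 compared (adjusted p = 0.33 to 0.43).

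**Figure D5:**
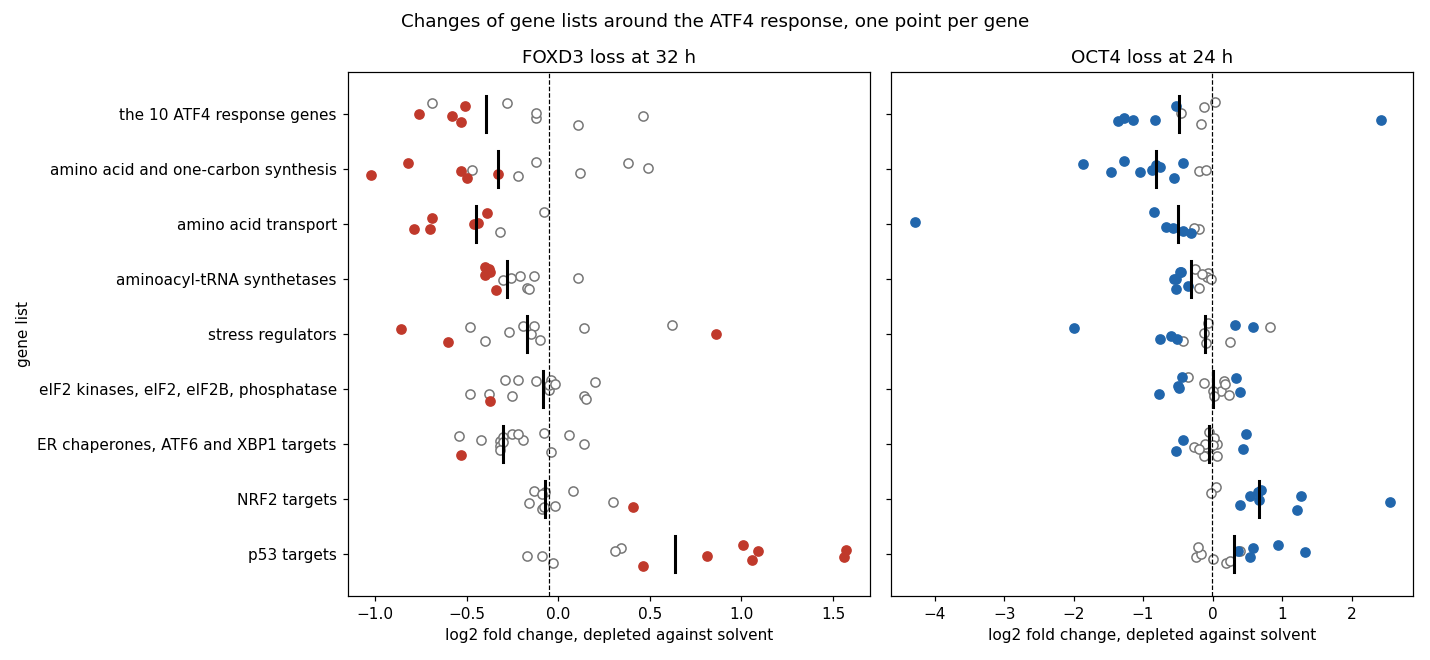
Log2 fold change, depleted against solvent (horizontal axis), of each gene in the 10 and in 8 related lists at FOXD3 loss of 32 h and OCT4 loss of 24 h. Filled points have an edgeR adjusted p under 0.05, thick ticks are list medians, the dashed line is the median of all genes tested, and vertical scatter within a row is only for legibility. The synthesis and transport lists lie mostly left of 0 in both panels, p53 targets extend right to 1.57 in the FOXD3 panel and NRF2 targets to 2.55 in the OCT4 panel.

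After OCT4 loss members of these 3 lists were also lower, at 24 h against a background of 18.7% of all genes lower, 18.1% higher and 36.9% called. At that time 9 of 11 synthesis genes were lower, including Cth (-1.46) of cysteine synthesis and Pck2 (-1.28), and 6 of 8 transporters. Slc7a3, an importer of arginine and lysine, went from 27.4 to 1.41 CPM (-4.28 ± 0.20, edgeR adjusted p = 1.5e-06). Of 12 tRNA synthetases 6 were lower (Mars -0.55, Yars -0.52, Nars -0.52, Cars -0.47). The NRF2 targets, which include other genes of glutathione and thioredoxin metabolism, had 8 of 10 higher and none lower at 24 h, and 7 of 10 at 16 h (7.94% of all genes higher). Osgin1 changed by 2.55, Nqo1 by 1.27, Srxn1 by 1.21 and Gclm by 0.69 at 24 h, the direction in which Slc7a11, itself a known NRF2 target, also moved. Whether NRF2 had a part in the Slc7a11 rise was not tested. In the joint fit 6 of 10 NRF2 targets, 4 of 11 synthesis genes and 2 of 8 transporters differed between the losses, and 0 of 12 tRNA synthetases, against 16.5% of all genes, a share to which that of the transporters is close. Stress regulators were split at 24 h, with 4 lower (Stc2 -2.0, Herpud1 -0.76) and 2 higher (Jdp2 0.32) of 12, and the endoplasmic reticulum genes had 2 higher and 2 lower of 15, a share below that of all genes.

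In the ethanol cells the decline between 24 and 32 h also reached related genes. Slc6a9 fell by 1.16, Gdf15 by 1.02, Pycr1 by 1.0, Atf3 by 0.87 and Nupr1 by 0.82 on the log2 scale, with 3 of 11 synthesis genes, 3 of 8 transporters, 4 of 12 stress regulators and 1 of 12 tRNA synthetases lower and none of them higher, against 2.68% of all genes lower and 5.38% called, and with no gene called in the fit of these 2 groups alone. The p53 targets had 0 of 12 called there. Without the second ethanol library of 32 h the median changes were -0.77 for stress regulators, -0.25 for synthesis genes, -0.21 for transporters and -0.13 for tRNA synthetases. The p53 targets then had a median of -0.22 and all genes 0.00. Called synthesis genes, tRNA synthetases and p53 targets went both ways in that fit. Without the first library the medians were -0.35, -0.12, -0.19, -0.09, -0.02 and -0.02 in the same order. During release with ethanol the endoplasmic reticulum genes had 11 of 15 higher and none lower at 5 h against 0 h, with 21.4% of all genes called.

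The genes were not one block across groups. Over the 8 group means of cycling FOXD3-iKO cells, log2 levels of Psat1 and Aldh18a1 had a Pearson correlation of 0.99 and those of Chac1 and Ddit3 also 0.99, while Sesn2 had -0.16 to 0.51 with the other 9. In the synchronized table the correlation of Phgdh with Aldh18a1 was 0.80 and with Asns -0.67. These are descriptions over groups that share tables and hours, without a test. The groups of cycling FOXD3-iKO cells also span both library series. Over the 24 group means, with each gene centred within its table, the 8 genes of 10891 most like the mean of the 10 were Nars (0.94), Herpud1 (0.94), Slc1a4 (0.93), Yars (0.93), Aars (0.93), Slc7a5 (0.92), Zfp775 (0.92) and Timm13 (0.92).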

How the data were processed

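The authors deposited 3 tables of raw counts, one whole number per gene and library. Alignment to mm10 used STAR and counting used featureCounts, according to tool names in the submitters' processing notes. The sources used here do not give the strand setting or the treatment of ambiguous reads, so overlapping and antisense genes are uncertain (Mars overlaps the end of Ddit3). Symbols were matched by gene ID without version (54723 of 54752), and of 2 IDs for Ddit3 the one with counts was used. No library pair was identical. No added RNA was counted, so levels are relative.

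The quasi-likelihood test of edgeR 4.0.16 (R 4.3.3) was fitted to each whole table (TMM, filterByExpr with a minimum count of 10, which kept 10 of the 10 genes in each table), with calls at an adjusted p (Benjamini-Hochberg, over all genes tested) under 0.05. SE is the size of the log2 change over the root of F, and CPM is after TMM scaling. Floors of 3 counts cover counting error only. On simulated data with 200 genes changed by a log2 fold of 1, 96.5, 97 and 99.5% were recovered (FOXD3 loss at 24 h over 18707 genes, OCT4 loss at 24 h over 17713, release over 17739). False calls numbered 11, 15 and 14. Only genes above a CPM minimum were changed, so these shares do not cover smaller changes or genes of few counts such as Slc7a11.

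The 10 genes and the 8 related lists were chosen with earlier results of these data known. All 10 are named, with up to 4 called genes of smallest p per list and the 8 genes of most like pattern (average log2 CPM of at least 1, Pearson correlation). Alternatives were DESeq2 1.42.0, a replicate block, only the compared groups, total counts alone, RLE factors, removal of a length trend (lowess), no low-count filter and leaving out each library.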

Additional observations from a re-analysis of the deposited data

Results flagged for a closer look

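The responses to FOXD3 loss and to OCT4 loss at 24 h differed by the test of the difference itself (edgeR, joint fit of 8 libraries) in 4 of the 10 genes, against 16.5% of 18437 genes called, 9.07% higher and 7.4% lower. The difference, FOXD3 response less OCT4 response, was 1.0 for Asns, 0.75 for Phgdh and 0.46 for Psat1, each falling more after OCT4 loss, and -3.04 for Slc7a11, which rose after OCT4 loss and read 0.629 and 0.347 CPM after FOXD3 loss against 0.781 and 0.663 in ethanol. The Psat1 call (adjusted p = 0.048) was lost with DESeq2, total counts alone, RLE factors, a replicate block or no low-count filter (adjusted p = 0.065 to 0.15), and without any one of 7 of the 8 libraries. ESC markers differed in the same fit in 7 of 7 tested, all lower after OCT4 loss, and trophectoderm markers in 3 of 7. The 7 ESC markers include Pou5f1, which doxycycline itself switches off, so its difference follows from the treatment. The part of these markers in the difference was not tested. Groups hold 2 libraries each, so no sample could be tested as an outlier.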

How the results depend on the processing

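No direction of a called gene among the 10 turned under any alternative except Sesn2 over release, at 0.00 with total counts alone. Of the values of named genes outside leave-one-out fits, 1633 kept their side of the threshold, 145 lost a call, 32 gained one and 17 turned sign; a change of sign within 1 SE of values called in neither fit was counted as kept. Turned values with total counts alone were, over release, Psat1 -0.16, Chac1 -0.14, Sesn2 0.00, Eif2ak3 -0.05, Iars -0.08, Lars -0.02, Eprs -0.08 and Gclc -0.08, Ddit3 0.05 for FOXD3 loss at 32 h and Ddit3 0.00 for water. With the length trend removed they were, over release, Psat1 -0.02, Atf4 0.02, Trib3 0.14, Ddit3 0.02 and Eprs 0.00, Ddit3 0.06 for FOXD3 loss at 32 h and Trib3 0.06 for OCT4 loss at 24 h.

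Counts of called genes moved over 1.5 times as follows, the cause not being tested. With DESeq2, FOXD3 loss at 14 h had 5 and at 24 h 158 genes (3 of the 10), its response at 32 against 24 h 12, ethanol 14 against 8 h 77, the OCT4 response 24 against 16 h 79, water 394, and release with 4HT 2 of the 10. With total counts alone, FOXD3 loss at 24 h had 0 of the 10 (84 genes in all), the OCT4 response 50 genes, water 3017, release with ethanol 1764 (1 of the 10) and release with 4HT 1290. Without a low-count filter FOXD3 loss had 15 genes at 14 h and 285 at 24 h (2 of the 10), its response 77, ethanol 164 at 14 h and 1620 at 32 h, the OCT4 response 457, water 2275 (2 of the 10), FOXD3 loss over release 1 of the 10 (6496 genes in all) and by release time 1738 genes, and release 5952 with ethanol and 4409 with 4HT. With the length trend removed FOXD3 loss had 6 genes at 14 h and 359 at 24 h (4 of the 10), its response 37, ethanol 270 and 2862, OCT4 loss at 16 h 5314, the OCT4 response 628 (1 of the 10), water 750 (2 of the 10) and FOXD3 against OCT4 loss 5086. With only the compared groups, FOXD3 loss had 76 genes at 8 h, 254 at 24 h (4 of the 10) and 194 at 32 h (0 of the 10), ethanol 1116 at 14 h (1 of the 10) and 0 at 32 h (0 of the 10), OCT4 loss 6506 and 4215, water 3, and release 754 with ethanol (1 of the 10) and 5518 with 4HT (4 of the 10). With a replicate block ethanol at 14 h had 1 gene, water 556, and release 6296 with ethanol and 4271 with 4HT; same-numbered libraries had correlations of -0.113 to 0.418, so the numbers were not taken as pairs, and with crossed numbers, added after seeing the data, OCT4 loss at 16 h had 2932 genes (6 of the 10).

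Leaving out each library gave, for FOXD3 loss, 0 to 2 genes at 8 h, 0 to 5 at 14 h, 2 to 226 at 24 h (0 to 5 of the 10) and 597 to 4370 at 32 h, for its response 0 to 681 (0 to 1), for ethanol 0 to 82 at 14 h and 73 to 4647 at 32 h (0 to 7), for OCT4 loss 1328 to 3857 at 16 h (3 to 6) and 3969 to 7851 at 24 h, for its response 0 to 204, for water 0 to 1766 (0 to 4), for FOXD3 against OCT4 loss 1438 to 4860, over release 2 to 4 of the 10, and for release with ethanol 1289 to 7673 (1 to 7) and 4HT 1063 to 3710 (1 to 2). Ranges with a fit counted as turned in sign were Ddit3 -0.27 to 0.17, Chac1 -0.15 to 0.24, Trib3 -0.31 to 0.00 and Atf4 -0.14 to 0.13 at FOXD3 14 h, Slc7a11 -0.47 to 0.33 and Trib3 -0.09 to 0.36 at 32 h, Sesn2 -0.17 to 0.39 for the response, Ddit3 -0.43 to 0.01 for ethanol 14 h, Slc7a11 -0.70 to 0.10 and Atf4 -0.47 to 0.00 for ethanol 32 h, Ddit3 -0.13 to 0.18 for OCT4 24 h, Chac1 -0.62 to 0.10 for its response and Asns -0.12 to 0.11 for water. Further ranges crossed 0 only by changes of sign that were counted as kept. Among them were Slc7a11 -0.34 to 0.08 at FOXD3 8 h, Chac1 -0.28 to 0.56 for the FOXD3 response and Trib3 -0.06 to 0.05 over release.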
